A study of Bos taurus with 16 samples.

Results

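Prostacyclin synthase (PTGIS) and the prostacyclin receptor (PTGIR) were examined by reduced representation bisulfite sequencing (RRBS) of the bovine endometrium. The sites taken were all positions of the methylation table whose gene symbol was PTGIS or PTGIR, which gave 26 and 23 sites, together 49 of 199395 sites. The table held 16 libraries of endometrial cytobrush cells from multiparous Holstein-Friesian cows, 4 in each of 4 groups. CON_P and CON_noP were cows on the control diet whose insemination resulted in pregnancy or in no pregnancy. MET_P and MET_noP were cows that received rumen-protected methionine (RPM) from day 12 postpartum, with the same 2 outcomes. All cows were inseminated at a heat between days 50 and 64 postpartum and sampled 4 to 8 h later, before the outcome was known, and they were assigned to P or noP afterwards. The study isolated DNA from more cytobrush samples than there were libraries, and from more noP than P samples. The sources used here do not say how many cows went into a library. The spread between libraries may therefore include technical spread, or may be narrowed by pooling of cows to an unknown degree in each group. The p-values measure that spread alone.

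Prostacyclin is a short-lived prostaglandin made from arachidonic acid. The cyclooxygenases turn the acid into an endoperoxide, and PTGIS, an enzyme of the cytochrome P450 family, rearranges this product into prostacyclin. PTGIR is the receptor on the cell surface through which prostacyclin raises cyclic AMP, and the pair is best known for relaxing blood vessels and restraining platelets. The endometrium makes prostacyclin beside other prostaglandins, which take part in the oestrous cycle and in early pregnancy. Methionine is the precursor of S-adenosylmethionine, the methyl donor for DNA methylation, and the comparison of diets asked whether its supply goes along with methylation differences in this tissue.

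The PTGIS sites (ENSBTAG00000017537) lay on chromosome 13 between positions 77591446 and 77640289 of the ARS-UCD1.2 build, over 48844 bp. The PTGIR sites (ENSBTAG00000014585) lay on chromosome 18 between 53754748 and 53755872, over 1125 bp. Sites no more than 200 bp from the next were taken as a cluster, which placed the PTGIS sites in 7 clusters, 1 of them a single site, and the PTGIR sites in 2. No annotation of that build was used, so whether a site lies in an exon, an intron or a promoter is not given. The closest sites of each gene were 2 bp apart, so none of them were both cytosines of the same CpG. The values are percent methylation without read counts. The depth behind each value is therefore unknown, and no counting interval can be given. The lowest value of the table was 1%, so any site that read 0% in a library was not part of it.

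The receptor gene was the less methylated of the pair at the positions measured. The median of the site means over all libraries was 24.9% for PTGIR, 81.6% for PTGIS and 77.5% for all sites of the table. No PTGIR site had a mean above 80%, against 14 of 26 PTGIS sites and 48.3% of all sites. Means under 20% were found for 7 PTGIR sites, for 3 PTGIS sites and for 17.4% of all sites. The median within-group SD was 8.21 percentage points for the PTGIS sites and 8.76 for the PTGIR sites, against 6.07 over all sites. The positions measured may differ in kind between the genes, so these levels describe the sites covered and not the genes as a whole.

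Along PTGIS the methylation changed from cluster to cluster. The first cluster, 6 sites from 77591446 to 77591606, had site means between 84.6 and 90.7%. The pair of sites at 77600841 and 77600883 was intermediate, with means of 52.2 and 42.6%. The 3 sites from 77605893 to 77605912 ranged from 81.6 to 94.8%, and the 3 sites from 77623477 to 77623526 from 93.1 to 97.0%. The latter held the most methylated PTGIS site, 77623477, which read between 88.9 and 100% in every library. The 4 sites from 77634877 to 77634936 fell back to means of 62.0 to 81.6%, and the single site at 77636316 had a mean of 89.3%. The last cluster, 7 sites from 77640077 to 77640289, held a steep decline over 213 bp. Its first 3 sites had means of 72.3, 64.5 and 67.3%, the next, at 77640101, 34.7%, and the last 3 had means of 15.9, 19.3 and 11.7%. All 4 groups showed this decline. At 77640077 the group means were 71.6% (CON_P), 58.9% (CON_noP), 74.4% (MET_P) and 84.3% (MET_noP). At 77640289, the least methylated PTGIS site, they were 10.2, 9.78, 12.8 and 14.2% in the same order, and no library exceeded 20%. Beyond it, 9 sites without a gene name between 77669053 and 77674270 had a mean of 82.8%.

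**Figure D1:**
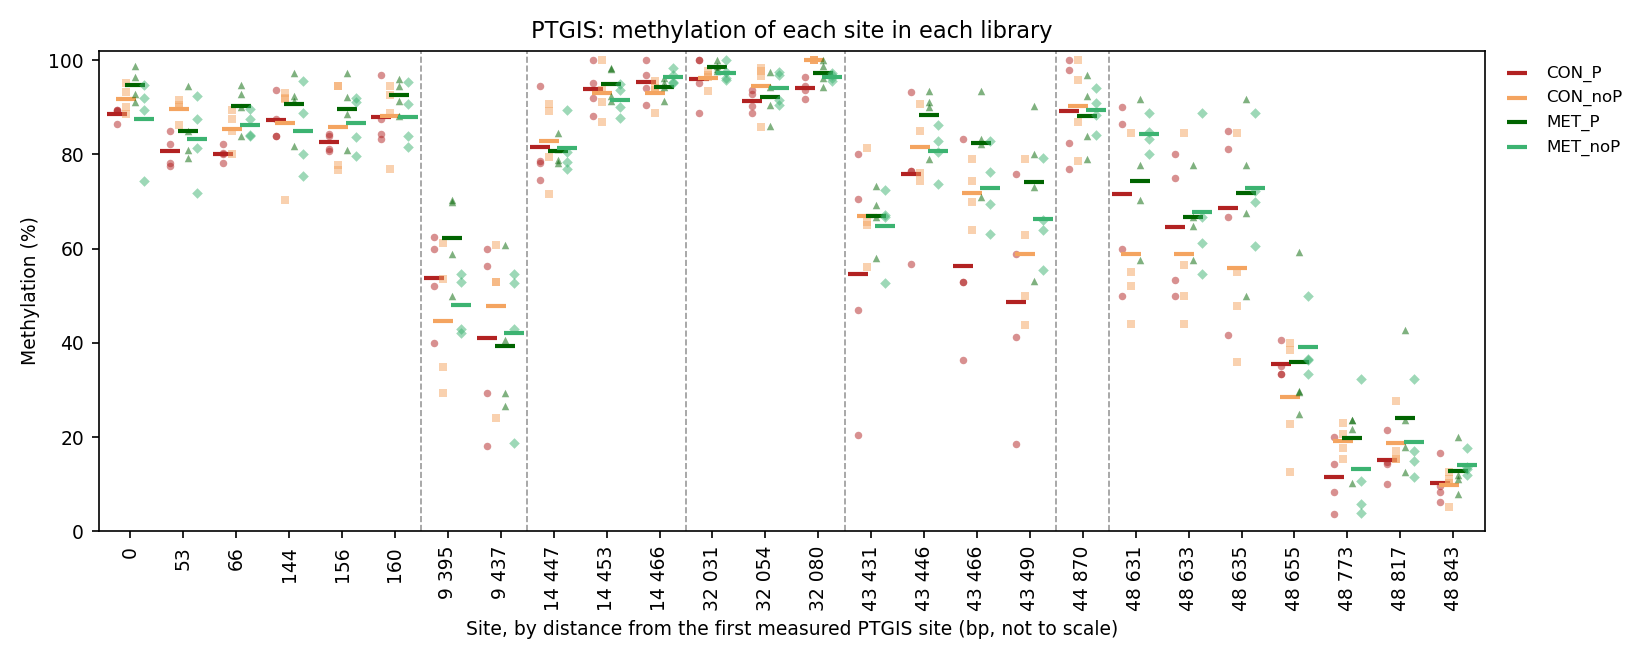
Percent methylation (vertical axis) of the 26 PTGIS sites, in order of their distance in bp from the first site (horizontal axis, not to scale, with dashed lines between clusters). Points are single libraries and horizontal bars are means of the 4 libraries of a group; along the last 7 sites the group means fall from between 58.9 and 84.3% at the first to between 9.78 and 14.2% at the last.

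Methylation of PTGIR was low at the first sites and rose along its first cluster, 17 sites from 53754748 to 53755269. The first 5 sites, up to 53754852, had means of 13.2 to 19.5%. The lowest, 53754829, read between 2.44 and 29.6% in single libraries. The last pair of the cluster, 53755259 and 53755269, had means of 54.3 and 55.1%, the highest of the gene. The second cluster, 6 sites from 53755803 to 53755872, had means between 13.9 and 32.7%. The 4 nearest sites without a gene name, at 53757638 to 53759784, had a mean of 86.0%. The next named gene on that side, GNG8, a G protein subunit, had 2 sites with a mean of 10.8%. On the other side, 11 sites of CALM3, a calmodulin gene, had a mean of 81.5%.

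**Figure D2:**
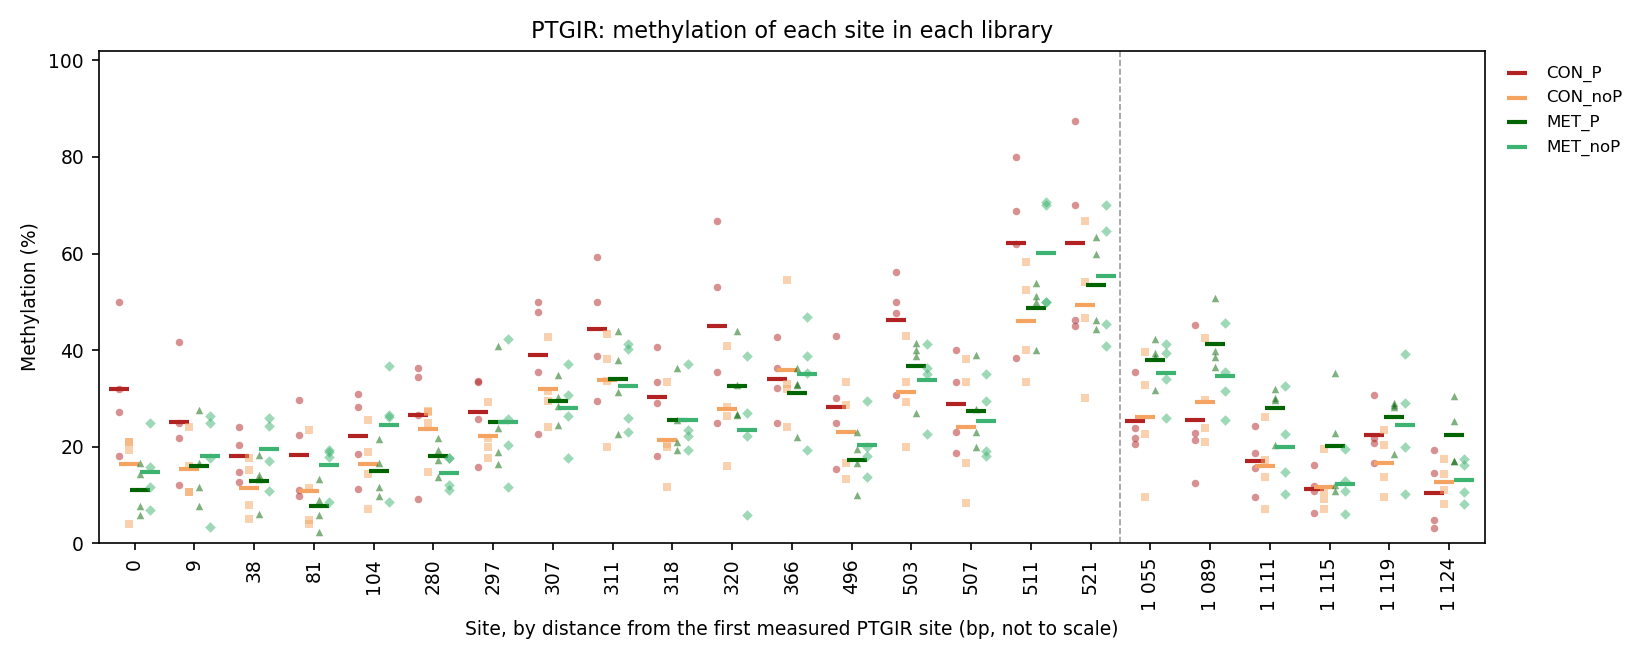
Percent methylation (vertical axis) of the 23 PTGIR sites, in order of their distance in bp from the first site (horizontal axis, not to scale, with a dashed line between the clusters). Points are single libraries and horizontal bars are means of the 4 libraries of a group; the CON_P mean lies above the MET_P mean at all 17 sites of the first cluster and below it at all 6 sites of the second.

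The mean over the 26 PTGIS sites was highest in MET_P and lowest in CON_P. The CON_P libraries read 62.3, 71.1, 61.8 and 75.0%, with a mean of 67.5% ± 6.55 (SD, n = 4). The CON_noP libraries read 75.4, 64.8, 69.3 and 67.3% (69.2% ± 4.50, SD, n = 4). The MET_P libraries read 74.3, 72.7, 75.2 and 71.3% (73.4% ± 1.74, SD, n = 4). The MET_noP libraries read 71.2, 73.4, 70.2 and 69.6% (71.1% ± 1.65, SD, n = 4). The control groups spread widely and overlapped with both RPM groups, so that no neighbours in this order of means differed beyond their spread.

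For PTGIR the order was another. The mean over its 23 sites was highest in CON_P, where the libraries read 37.1, 31.8, 24.4 and 28.8% (30.5% ± 5.30, SD, n = 4). In CON_noP they read 28.4, 19.2, 28.1 and 20.5% (24.1% ± 4.89, SD, n = 4), the lowest mean. The MET_P libraries read 28.7, 25.5, 25.2 and 28.2% (26.9% ± 1.82, SD, n = 4) and the MET_noP libraries 29.1, 24.2, 26.5 and 26.7% (26.6% ± 2.04, SD, n = 4). Every group overlapped with every other. For both gene means this held in all 4 comparisons of 2 groups, where the shares of genes without overlap were 3.81% for the diets in pregnancy, 3.75% for the diets in no pregnancy, 1.95% for the outcomes on the control diet and 3.44% for the outcomes with RPM.

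**Figure D3:**
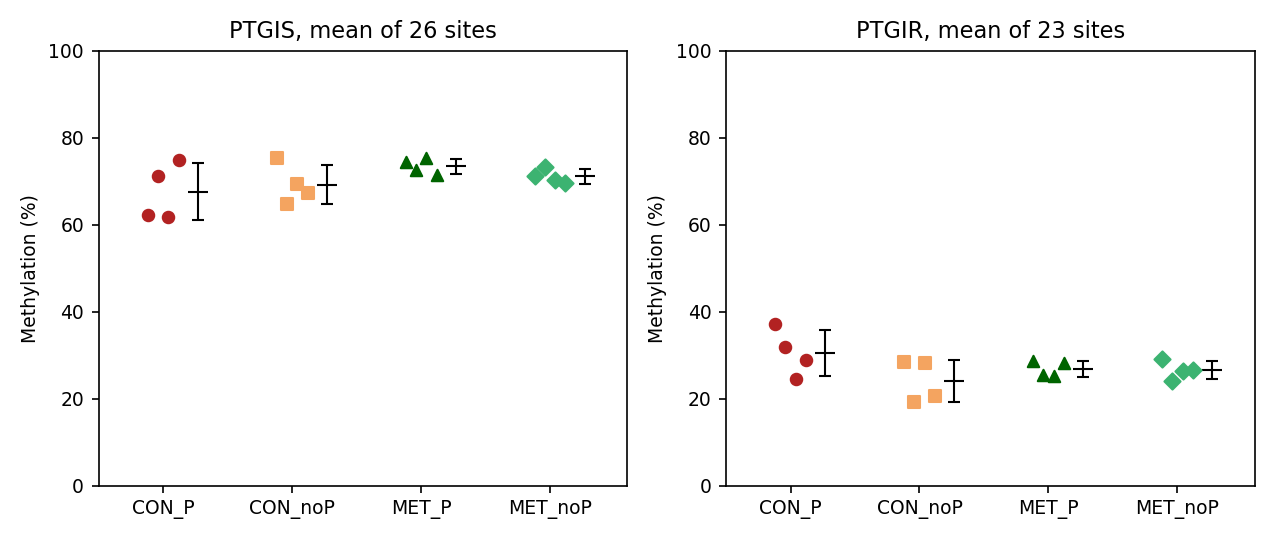
Mean percent methylation (vertical axis, 0 to 100%) over the 26 PTGIS sites (left) and the 23 PTGIR sites (right) in the 4 groups (horizontal axis). Each point is 1 library, and the bar beside the points is the group mean with its SD over 4 libraries; the groups overlap in both panels.

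RPM was compared with the control diet first among cows that became pregnant. In this comparison PTGIS was higher in MET_P by 5.85 percentage points (two-sided exact permutation test, p = 0.171), and PTGIR was lower by 3.64 points (exact permutation p = 0.314). With 4 libraries against 4 the smallest p this test can give is 0.0286. On the M scale, the log2 ratio of methylated to unmethylated percentages, limma gave a difference of 0.54 ± 0.32 (SE) for PTGIS and of -0.26 ± 0.25 for PTGIR, with Benjamini-Hochberg adjusted p-values over 8719 genes of 0.809 and 0.871. Neither passed 0.05, and 0 of all genes did in this comparison (unadjusted p under 0.05 for 6.49% of genes). Of all genes, 10.1% had a difference in mean percent at least as large as that of PTGIS and 22.0% one as large as that of PTGIR. Leaving out the highest CON_P library raised the PTGIS difference to 8.32 points, and leaving out the library with the lowest value lowered it to 3.93. The mean of the 9 sites without a gene name beyond PTGIS was also higher in MET_P than in CON_P, by 5.25 points (exact permutation p = 0.0857), and higher than in MET_noP without overlap, by 5.34 points (exact permutation p = 0.0286). For PTGIR the difference was 1.46 points below CON_P without the highest CON_P library, and 5.67 below it without the lowest.

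The sites of the genes leaned in opposite directions in this comparison. The MET_P mean was higher at 22 of 26 PTGIS sites and at 6 of 23 PTGIR sites, against 53.6% of all sites of the table. An unadjusted limma p under 0.05 was reached at 3 PTGIS sites, all higher in MET_P, and at 2 PTGIR sites, 1 in each direction. These were 5 of 49 sites, against 5.83% of all sites (3.06% higher and 2.77% lower). No site of either gene had an adjusted p under 0.05 (lowest 0.827, Benjamini-Hochberg over all sites), nor had any site of the table. The ranges of CON_P and MET_P were separate at 3 of the 49 sites, 2 of PTGIS with MET_P higher and 1 of PTGIR with MET_P lower, against 3.09% of all sites (1.92% higher and 1.17% lower). Neighbouring sites share fragments and cells, so they are not independent counts.

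Both PTGIS sites without overlap lay in the first cluster. At 77591446 the CON_P libraries read 89.5, 89.3, 86.4 and 89.5% and the MET_P libraries 92.9, 98.7, 96.4 and 91.0%. All MET_P libraries were above all CON_P libraries, by 6.10 points in the means (exact permutation p = 0.0286, limma adjusted p = 0.827). At 77591512 the CON_P libraries read 80.3, 82.1, 78.3 and 80% and the MET_P libraries 94.8, 90, 92.7 and 83.8%. Again the groups did not overlap, and the difference was 10.2 points (exact permutation p = 0.0286, limma adjusted p = 0.827). Over the 6 sites of the cluster, CON_P read 85.0, 83.6, 83.2 and 86.5% and MET_P 91.3, 93.8, 92.5 and 84.4%. Here 1 MET_P library fell within the range of CON_P, and the means differed by 5.93 points (exact permutation p = 0.0857). The unadjusted limma p was 0.0446, which 6.23% of all 37772 clusters of at least 2 sites reached in this comparison, and the adjusted p was 0.784.

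The largest PTGIS difference in this comparison was at 77634912, in the cluster of 4 sites. CON_P read 36.4, 52.9, 52.9 and 83.3% there and MET_P 83.3, 82.2, 93.5 and 71.0%. The highest CON_P library lay among the MET_P libraries, and the difference of 26.1 points had an exact permutation p of 0.114 (limma adjusted p = 0.827). The whole cluster read 33.1, 64.7, 54.4 and 83.1% in CON_P (58.8% ± 20.9, SD, n = 4) and 81.7, 78.3, 83.9 and 68.1% in MET_P (78.0% ± 6.96, SD, n = 4). CON_noP (69.8% ± 9.41, SD, n = 4) and MET_noP (71.2% ± 7.83, SD, n = 4) lay between them. The difference of 19.2 points between MET_P and CON_P (exact permutation p = 0.143, limma adjusted p = 0.784) rested on how the CON_P libraries spread. It was 10.6 points without the lowest of them and 27.3 points without the highest. The 4 sites of the cluster moved together from library to library, with correlations of their deviations from the group means between 0.73 and 0.92 (median 0.83, 6 pairs, 16 libraries, which share fragments). Within the other PTGIS clusters the median correlations were lower, from -0.09 (from 77605893) to 0.29 (from 77591446). Sites of different PTGIS clusters had a median correlation of 0.11 over 276 pairs.

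The clusters of PTGIR differed between MET_P and CON_P in opposite directions. The MET_P mean was lower at all 17 sites of the first cluster and higher at all 6 sites of the second. In the first cluster CON_P read 43.9, 38.1, 27.9 and 28.9% (34.7% ± 7.69, SD, n = 4) and MET_P 26.4, 23.9, 23.6 and 30.2% (26.01% ± 3.04, SD, n = 4). MET_P was lower by 8.68 points, with 1 of its libraries above the 2 lowest of CON_P (exact permutation p = 0.0857, limma adjusted p = 0.784). Without the highest CON_P library, which also had the highest leukocyte list value of all libraries (given at the end), the difference was -5.60 points. In the second cluster CON_P read 17.5, 14.1, 14.7 and 28.5% (18.7% ± 6.72, SD, n = 4) and MET_P 35.2, 29.9, 29.6 and 22.7% (29.4% ± 5.14, SD, n = 4). Here MET_P was higher by 10.7 points (exact permutation p = 0.0571), and 1 library of each group overlapped. Its unadjusted limma p was 0.0392 and its adjusted p 0.784. With the cluster of the first 6 PTGIS sites it made 2 of the 8 clusters with an unadjusted p under 0.05. The remaining PTGIS clusters differed less, by 3.49 points in the pair from 77600841 (exact permutation p = 0.771), by -0.216 points from 77605893 (exact permutation p = 0.943), by 2.18 points from 77623477 (exact permutation p = 0.286) and by 4.03 points from 77640077 (exact permutation p = 0.457). Single libraries moved these values, and without the CON_P library lowest in 3 of them they were -2.59 points from 77600841, 1.15 from 77623477 and 0.986 from 77640077. Without the MET_P library lowest in the cluster the first was 7.65 and the last 7.13 points, and the value from 77605893 ran from -1.76 to 1.198 when single libraries were left out.

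A mean over the whole receptor gene therefore averaged over opposite differences. The first cluster minus the second was 26.4, 24.02, 13.2 and 0.355 points in the CON_P libraries and -8.84, -5.99, -6.02 and 7.48 points in the MET_P libraries. Here 1 library of each group crossed into the other, and the means differed by 19.3 points (exact permutation p = 0.0571, a contrast chosen after the values were seen). Between MET_noP and CON_noP the same contrast differed by 2.69 points (exact permutation p = 0.771). At the second cluster the MET_noP mean was higher than that of CON_noP at all 6 sites, by 4.54 points over the cluster (exact permutation p = 0.429; 1.43 without the highest MET_noP library and 7.30 without the highest of CON_noP), whereas at the first it was higher at 10 of 17. Averaged over outcomes the second cluster was higher with RPM by 7.59 points (stratified exact permutation p = 0.042, limma adjusted p = 0.774), a p not adjusted for the 7 comparisons made of each value. The mean of the 4 sites without a gene name beyond PTGIR was also higher with RPM. It differed by 7.06 points averaged over outcomes (stratified exact permutation p = 0.0392, likewise not adjusted). Between MET_P and CON_P it differed by 9.22 points (exact permutation p = 0.257), where CON_P read 72.5, 89.0, 71.1 and 93.0%. Averaged over outcomes, GNG8 differed by -0.0529 points (stratified exact permutation p = 0.98) and CALM3 by 1.30 points (stratified exact permutation p = 0.192). The sites of the second cluster deviated together with a median correlation of 0.61 over 15 pairs. Those of the first cluster did so less, with a median of 0.28 over 136 pairs, which ran from -0.71 to 0.94. Sites of different clusters had a median correlation of -0.16 over 102 pairs.

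The PTGIR site without overlap was its first, 53754748. CON_P read 50, 18.2, 27.3 and 32% and MET_P 16.7, 7.69, 5.88 and 14.3%. All MET_P libraries lay below all CON_P libraries, by 20.7 points in the means (exact permutation p = 0.0286, limma adjusted p = 0.827). CON_noP (16.3% ± 8.27, SD, n = 4) and MET_noP (14.9% ± 7.67, SD, n = 4) were nearer to MET_P than to CON_P.

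**Figure D4:**
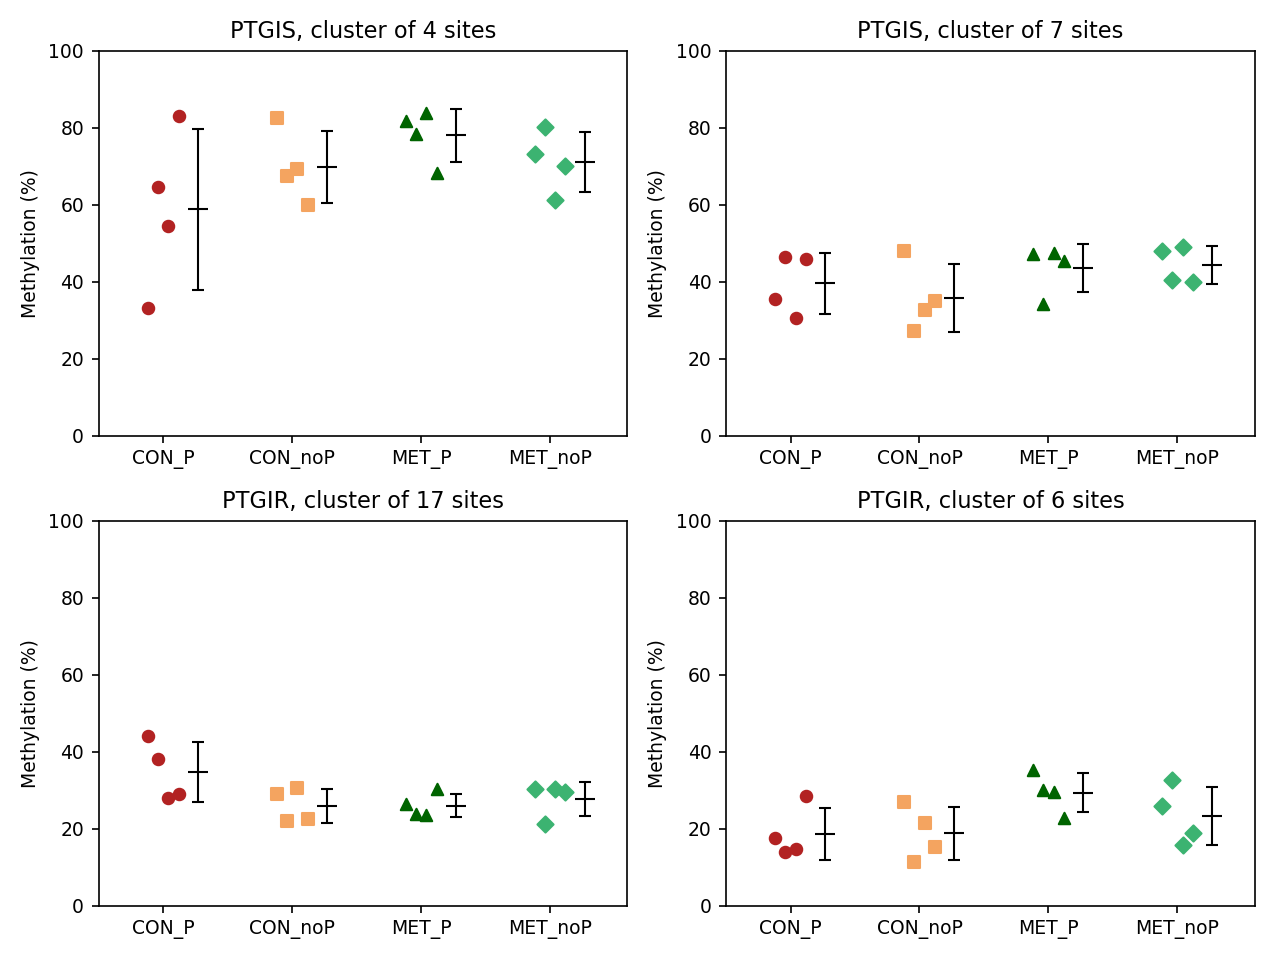
Mean percent methylation (vertical axis, 0 to 100%) of the PTGIS clusters of 4 and 7 sites and of both PTGIR clusters in the 4 groups (horizontal axis). Points are libraries and bars are the group mean with its SD over 4 libraries; the CON_P libraries of the 4-site PTGIS cluster spread from 33.1 to 83.1%, and the PTGIR clusters differ between CON_P and MET_P in opposite directions.

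Among cows that did not become pregnant the diets differed less in both genes. PTGIS was higher in MET_noP than in CON_noP by 1.91 points (exact permutation p = 0.457), while its limma difference on the M scale was of the opposite sign, -0.01 ± 0.24 (SE, adjusted p = 0.998). PTGIR was higher in MET_noP by 2.55 points (exact permutation p = 0.371, limma adjusted p = 0.964). Without the CON_noP library lowest in both genes these differences were 0.446 points for PTGIS and 0.925 for PTGIR, and without the one highest in both they were 3.96 and 4.00. The MET_noP mean was higher at 13 of 26 PTGIS sites and at 16 of 23 PTGIR sites, against 57.3% of all sites. An unadjusted p under 0.05 was reached at 2 of the 49 sites (5.13% of all sites) and the groups did not overlap at 1, lower in MET_noP (2.75% of all sites, 0.903% lower). The largest difference was at the first site of the declining PTGIS cluster, 77640077. CON_noP read 84.6, 44, 52.2 and 55% there and MET_noP 88.9, 80, 83.3 and 84.8%. The first of these CON_noP libraries lay among the MET_noP libraries, and the difference was 25.3 points (exact permutation p = 0.0857, limma adjusted p = 0.906). The cluster as a whole read 47.9, 27.1, 32.6 and 35.1% in CON_noP and 48.0, 40.3, 49.1 and 39.9% in MET_noP. Again 1 CON_noP library lay among those of MET_noP, with a difference of 8.64 points (exact permutation p = 0.143). The largest PTGIR difference was at 53755259, where CON_noP read 58.3, 40, 52.4 and 33.3% and MET_noP 70.6, 50, 70 and 50%. These overlapped, with means 14.1 points apart (exact permutation p = 0.171).

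The site without overlap in this comparison was the PTGIS site 77623526, close to full methylation. All 4 CON_noP libraries read 100%, whereas MET_noP read 95.6, 96.9, 97.3 and 96.2%. CON_P was also below 100%, at 91.8, 96.4, 94.4 and 93.6%. MET_P read 100, 96.2, 94.3 and 98.8% and so overlapped with both. The site was lower in MET_noP than in CON_noP by 3.53 points (exact permutation p = 0.0286, limma adjusted p = 0.239) and lower in CON_P than in CON_noP by 5.93 points (exact permutation p = 0.0286, limma adjusted p = 0.209). CON_noP had no spread there at all, and both adjusted p-values passed 0.05 when the offset of the M value was 0.1 in place of 1 percentage point (0.0016 and 0.00202). These calls therefore depended on how values at the upper limit were treated.

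Pregnancy was then compared with no pregnancy within each diet. Within the control diet, PTGIR was higher in CON_P than in CON_noP by 6.46 points (exact permutation p = 0.143, limma adjusted p = 0.999), and 4.77% of genes differed at least as much. It was 4.28 points without the highest CON_P library. PTGIS was lower in CON_P by 1.66 points (exact permutation p = 0.714, limma adjusted p = 0.999). The CON_P mean was higher at 18 of 23 PTGIR sites and at 9 of 26 PTGIS sites, against 55.4% of all sites. An unadjusted p under 0.05 was reached at 2 of the 49 sites (3.93% of all sites, 1.40% lower), both in PTGIS and lower in CON_P, and the groups did not overlap at those 2 (1.99% of all sites, 0.770% lower). Besides 77623526 this was 77591499, in the first cluster. CON_P read 77.6, 82.1, 78.3 and 85.0% there and CON_noP 90, 90.5, 91.5 and 86.3%. The CON_P libraries were all lower, by 8.82 points in the means (exact permutation p = 0.0286, limma adjusted p = 1). The 3-site cluster with 77623526, from 77623477, was lower in CON_P by 3.07 points (exact permutation p = 0.114; -2.04 without the lowest CON_P library), with an unadjusted limma p of 0.0442, which 3.79% of all clusters reached, and an adjusted p of 1. In PTGIR the first cluster was higher in CON_P at 16 of 17 sites and by 8.76 points over the cluster, where CON_noP read 28.9, 21.9, 30.5 and 22.4% and so overlapped with CON_P (exact permutation p = 0.171). Without the highest CON_P library the difference of this cluster was 5.67 points. The second cluster differed by -0.059 points (exact permutation p = 1). The largest PTGIS difference was at 77634912, where CON_noP read 79.1, 70, 74.3 and 64% and overlapped with CON_P, which was 15.4 points lower (exact permutation p = 0.2). Over that cluster of 4 sites CON_noP read 82.6, 67.5, 69.3 and 59.9%, and CON_P was 10.99 points lower (exact permutation p = 0.4). The difference was -2.40 points without the lowest CON_P library and -19.1 without the highest. The largest PTGIR difference at a site was at 53755068. CON_P read 53.1, 66.7, 35.5 and 25% and CON_noP 26.5, 16, 40.8 and 28.3%, which overlapped (17.2 points, exact permutation p = 0.2).

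With RPM, MET_P and MET_noP overlapped in both gene means. PTGIS was higher in MET_P than in MET_noP by 2.28 points (exact permutation p = 0.114, limma adjusted p = 0.936) and PTGIR by 0.267 points (exact permutation p = 0.857, limma adjusted p = 0.994). None of the 49 sites reached an unadjusted limma p under 0.05 (5.12% of all sites) or was without overlap (2.90% of all sites). The MET_P mean was higher at 16 of 26 PTGIS sites and at 14 of 23 PTGIR sites, against 51.8% of all sites. The largest PTGIS difference was at 77600841, where MET_P read 50, 70, 58.8 and 70.3% and MET_noP 52.9, 42.1, 42.9 and 54.5%. The ranges overlapped by 1 MET_P library, and the difference was 14.2 points (exact permutation p = 0.0857). In PTGIR it was at 53755259, where MET_P read 40, 51.2, 50 and 53.8% and so overlapped with MET_noP (11.4 points lower, exact permutation p = 0.286). By clusters, MET_P was higher by 6.83 points from 77634877 (exact permutation p = 0.286), at all 4 sites. From 77591446 it was higher by 4.37 points (exact permutation p = 0.314). In the second PTGIR cluster it was higher by 6.06 points (exact permutation p = 0.229). Both held at all 6 sites. The pair from 77600841 differed by 5.65 points (exact permutation p = 0.429). Differences in the remaining clusters ran from -1.78 points, in the first PTGIR cluster, to 0.238 points, from 77605893.

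**Figure D5:**
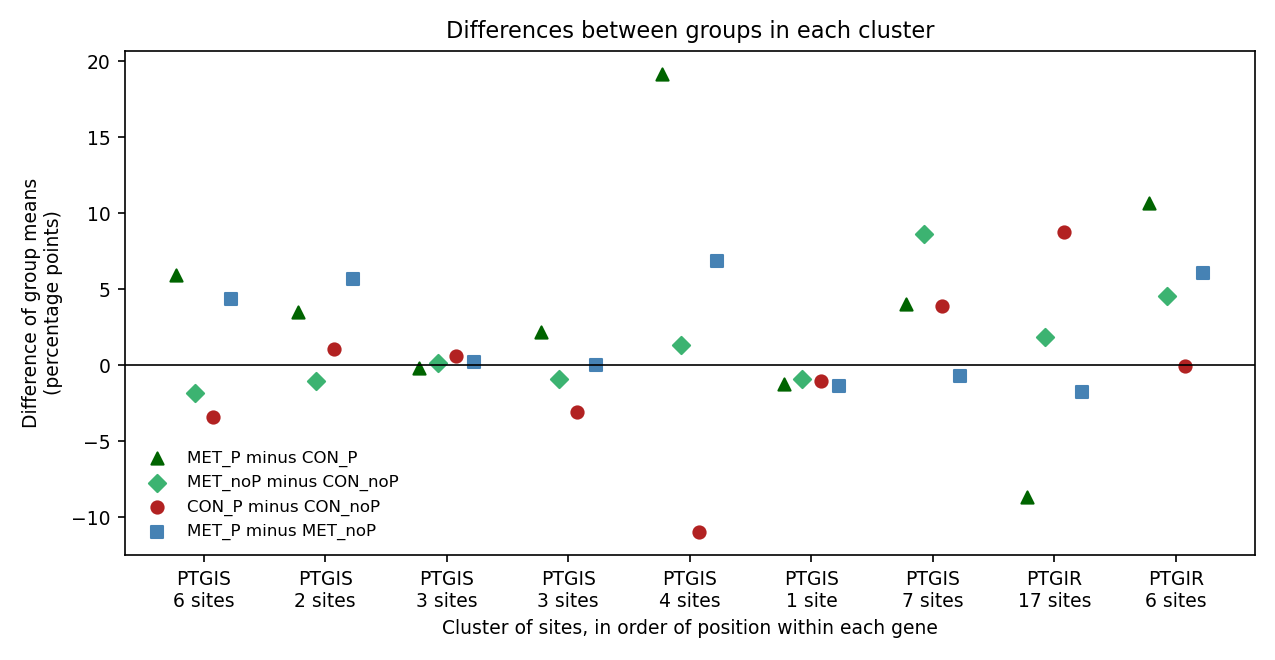
Difference of group means in percentage points (vertical axis) for each cluster of PTGIS and PTGIR sites (horizontal axis, in order of position) in the 4 comparisons of 2 groups. Points above 0 are higher in the first group named; MET_P minus CON_P runs from -8.68 to 19.2 points, and no cluster had an adjusted p under 0.05 in limma.

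Comparisons that share a group share its libraries, and CON_P stood in both comparisons in which the PTGIR gene mean differed most. Averaged over outcomes, RPM went with 3.88 points more methylation of PTGIS (stratified exact permutation p = 0.0927, limma adjusted p = 0.817) and 0.543 points less of PTGIR (p = 0.796 in the same permutation test, adjusted p = 0.994). At sites, 4 of 49 had an unadjusted p under 0.05 for diet (6.05% of all sites). Averaged over diets, pregnancy went with 0.312 points more of PTGIS (permutation p = 0.878) and 3.36 points more of PTGIR (permutation p = 0.131), and 1 of 49 sites had an unadjusted p under 0.05 (3.89% of all sites). The difference between the diet effects in pregnancy and in no pregnancy was 3.94 points for PTGIS (permutation p = 0.336, limma adjusted p = 0.896) and -6.19 points for PTGIR (permutation p = 0.164, limma adjusted p = 0.905). For this permutation test outcome was permuted within diet, so its p also assumes no effect of outcome in either diet. With single libraries left out the difference ran from 1.89 to 6.41 points for PTGIS and from -8.22 to -4.01 for PTGIR. This interaction had an unadjusted p under 0.05 at 5 of 49 sites (5.25% of all sites). A difference between pregnant and non-pregnant cows in the response to RPM was thus not shown for either gene.

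Between the gene means of the synthase and the receptor, Pearson's r over the 16 libraries was 0.04 (permutation p = 0.883). Spearman's rho was 0.21 (permutation p = 0.445). Without the 2 libraries farthest from the PTGIS median r was 0.56 over 14 libraries, so that the r of 0.04 rested on those libraries. Whether the genes vary together was therefore not settled. Among 5725 genes with at least 5 sites, the means most like PTGIS over the 16 libraries were those of ENSBTAG00000051997 (r = 0.93), SLC38A10, an amino acid transporter (r = 0.91), and ITGB4, an integrin subunit of epithelia (r = 0.90). ENSBTAG00000051997 lies on chromosome 13, as PTGIS does, whereas SLC38A10 and ITGB4 lie on chromosome 19. Those most like PTGIR were ENSBTAG00000055063 (r = 0.85), KIRREL1, a cell adhesion protein (r = 0.83), and AIFM3, a mitochondrial protein (r = 0.83). These were the highest of many correlations over the same libraries and are given as a description.

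The rest of the prostanoid pathway was read from a list of 47 other genes that covers the release of arachidonic acid, the cyclooxygenases, the terminal synthases, the receptors, transport and breakdown, and the leukotriene branch. Of these, 29 had a site and 26 had the 2 sites needed for a test. None passed an adjusted p of 0.05 in any of the 7 comparisons by limma (lowest 0.633). Between MET_P and CON_P an unadjusted p under 0.05 was reached by 1 gene that was higher and 3 that were lower, of 26, against 6.49% of all genes (3.95% higher and 2.55% lower), and the median M difference of the list was -0.01 (0.02 over all genes). The gene that was higher was PTGS1, a cyclooxygenase that supplies the substrate of PTGIS. Its 4 sites had a mean of 79.6% ± 10.7 (SD, n = 4, range 65.2 to 88.7%) in MET_P and 58.2% ± 21.1 (SD, n = 4, range 37.5 to 83.1%) in CON_P. These ranges overlapped (21.5 points, exact permutation p = 0.143, limma adjusted p = 0.765). The 3 that were lower were PTGES, which makes prostaglandin E (-21.0 points), the thromboxane receptor TBXA2R (-18.8 points) and ALOX5, the first enzyme of the leukotriene branch (-2.02 points). They are named here after their values were seen. In LTC4S, which makes a leukotriene, the MET_P libraries (11.6 to 12.4%) did not overlap with those of CON_P (6.41 to 11.3%), a difference of 2.86 points (exact permutation p = 0.0286, limma adjusted p = 0.778). Of all genes, 3.81% were without overlap between MET_P and CON_P.

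Between MET_noP and CON_noP, 2 of the 26 genes had an unadjusted p under 0.05, both higher, against 5.88% of all genes (4.32% higher), and the median M difference was 0.18 (0.08 over all genes). One was PTGDS, which makes prostaglandin D from the substrate that PTGIS uses. It read 52.9 to 61.1% in MET_noP and 45.0 to 49.9% in CON_noP, without overlap (8.80 points, exact permutation p = 0.0286, limma adjusted p = 0.695). The other, named after its value was seen, was the phospholipase PLA2G10 (4.93 points, limma adjusted p = 0.810). Without overlap were also thromboxane synthase, TBXAS1, which was higher by 2.22 points (exact permutation p = 0.0286, limma adjusted p = 0.863), and the phospholipase PLA2G4E, which was lower by 4.51 points (exact permutation p = 0.0286, limma adjusted p = 0.924). Of all genes, 3.75% were without overlap between MET_noP and CON_noP.

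The mix of cells on the brush was not measured, and a change in methylation within cells and a change in the share of a cell type cannot be told apart in these libraries. The mean of all sites lay between 61.3 and 65.1% in all libraries. For each list of cell type genes, the sites of a gene were averaged first and then the genes, each with the same weight. The leukocyte mean, of 19 of 26 listed genes with 339 sites, had ranges of 53.4 to 62.9% (CON_P), 56.2 to 57.3% (CON_noP), 57.1 to 58.4% (MET_P) and 53.3 to 56.3% (MET_noP). It was 2.59 points higher in MET_P than in MET_noP without overlap (exact permutation p = 0.0286). For the mean of 16 of 20 epithelial genes, with 128 sites, the ranges were 25.7 to 39.0%, 29.01 to 34.8%, 25.9 to 32.6% and 23.8 to 39.8% in the same order. The ranges for the mean of 9 of 14 stromal genes, with 53 sites, were 41.7 to 44.1%, 42.9 to 45.5%, 43.0 to 45.2% and 44.0 to 46.6% in the same order. Averaged over diets, the stromal mean differed by -1.28 points between pregnancy and no pregnancy (stratified exact permutation p = 0.0371). The p-values of these lists are not adjusted for the 7 comparisons made of each list. The CON_P library with the lowest value in the 4-site PTGIS cluster and the highest PTGIR mean also had the highest leukocyte value, the highest epithelial value of its group and the highest mean of all sites, 65.1%. The part of cell mix in the PTGIS and PTGIR values was not tested.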

How the data were processed

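DNA methylation of endometrial cytobrush cells was measured by RRBS (MspI digestion, fragments of 40 to 200 bp) in 16 libraries, 4 in each group. Per the study's methods and the submitters' notes, adapters were removed by the authors in Trim Galore, Bismark mapped the reads to the ARS-UCD1.2 build, SAMtools joined the repeat runs of each library, and SeqMonk quantified the cytosines. The deposited table gives percent methylation by the authors at 199395 positions, after positions with no valid or zero values had been discarded, and holds no read counts. The logistic regression of the study, which needs counts, was therefore not repeated.

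Columns were assigned to groups by the group name that stood above each of them in the header. Percentages were converted to M = log2((percent + 1)/(100 - percent + 1)). Single sites, means of the 8719 genes with at least 2 sites and means of the 37772 clusters of at least 2 sites (gaps of at most 200 bp) were fitted in limma 3.58.1 (R 4.3.3), each pair of groups by itself and the averaged and interaction terms over all libraries, with Benjamini-Hochberg adjustment over all features and a threshold of 0.05. Differences in percent were tested by two-sided exact permutation tests over 70 assignments, or 4900 within strata. In the strata, diet was permuted within outcome for the diet average. For the outcome average and the interaction, outcome was permuted within diet. The permutation p-values of the correlation used 100000 permutations. The fits were tested on simulated data first.

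Named sites were, for each gene and pair of groups, the site of largest difference and each site without overlap, and the sites of lowest and highest mean. Named pathway genes were those without overlap between the diets, and PTGS1. PTGES, TBXA2R, ALOX5 and PLA2G10 were named beside them after their values were seen. The members and lists were chosen with earlier results of these data known. From its logistic regression of single sites, the study listed PTGIS, PTGIR and PTGS1 as more methylated in MET_P than in CON_P. It listed PTGIR as less methylated in MET_P than in MET_noP. The PTGIR gene mean given here was lower in MET_P than in CON_P, and a gene mean is another measure than called sites. No library pair had identical values (r between 0.91 and 0.97 over all sites). Other offsets, scalings, filters, models, cluster distances and sets of libraries were tried.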

Additional observations from a re-analysis of the deposited data

Results flagged for a closer look

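In 7 of 100 checked groups of 4 libraries, 1 library stood far from the other 3, where chance alone is expected to give about 1 in 20. In PTGIS these were the lowest CON_noP library in the cluster that starts at 77591446 (81.8%, others 89.5 to 90.4%), the highest MET_P library in the cluster that starts at 77623477 (97.5%, others 95.3 to 95.7%), the lowest MET_P library in the cluster that starts at 77640077 (34.3%, others 45.5 to 47.5%) and the lowest CON_P library at the site 77591446 (86.4%, others 89.3 to 89.5%). In PTGIR they were the lowest MET_noP library in the cluster that starts at 53754748 (21.2%, others 29.4 to 30.3%), the lowest CON_noP library at the site 53754748 (4.0%, others 19.2 to 21.1%) and the lowest MET_noP library at the site 53754829 (8.51%, others 17.9 to 19.3%).

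The interaction of diet and outcome had an unadjusted permutation p under 0.05, with outcome permuted within diet, at 6 sites, out of 25 interactions computed. A difference in the effect of diet between pregnant and non-pregnant cows is not shown by them, since 5 of these sites were named for the size of a difference or for lack of overlap in a comparison that enters the interaction, and by limma none had an adjusted p under 0.05 (0.688 to 0.939). At PTGIR the difference of differences was -19.3 points at 53754748 (permutation p = 0.0494), -15.9 points at 53754829 (permutation p = 0.0498) and -27.6 points at 53755259 (permutation p = 0.0412). At PTGIS it was 10.3 points at 77591446 (permutation p = 0.0269), 9.33 points at 77591512 (permutation p = 0.022) and 6.79 points at 77623526 (permutation p = 0.00898).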

How the results depend on the processing

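No alternative brought a gene mean or a cluster of PTGIS or PTGIR past an adjusted p of 0.05 (lowest 0.421 and 0.313). Among single sites, an offset of 0.1 percentage points gave 1 site, PTGIS 77623526, for MET_noP against CON_noP and the same site for CON_P against CON_noP, and no other alternative gave any. The median of the sites in place of their mean turned the PTGIS difference between CON_P and CON_noP to 0.632 points and the PTGIR difference between MET_noP and CON_noP to -0.405 points. Centring the libraries turned the PTGIS outcome difference averaged over diets to -0.171 points. Leaving out 1 library at a time, the PTGIS difference ranged from -4.13 to 0.393 points for CON_P against CON_noP and from -0.924 to 1.34 points for outcome averaged over diets. For PTGIR it ranged from -0.549 to 1.11 points for MET_P against MET_noP and from -1.56 to 0.546 points for diet averaged over outcomes. The cause was not tested, and each of these differences was within the spread between libraries. The other gene means kept their direction in percent without any single library, with PTGIS between MET_P and CON_P at 3.93 to 8.32 points and PTGIR at -5.67 to -1.46 points.

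The study matched cows in pairs by calving date, parity and earlier milk yield, and drew the diet at random within pairs. No paired analysis was possible, because the pairs are not given and the table's columns carry library numbers and not the replicate numbers of the labels. The diet comparisons therefore ignored this matching. An added alternative, chosen after seeing the data, took consecutive library numbers, which span all 4 groups, as a block and changed no call. Within these sets the deviations from the group means had correlations of -0.13 to 0.12, which cannot tell whether libraries of a set were paired. Without read counts, the sampling error of each percentage is unknown.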
